A study of Homo sapiens with 12 samples.

Results

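The miRNAs described here carry the late numbers miR-548 to miR-664 and miR-1178 to miR-1305. They were taken by name from the deposited table of normalised values, leaving out 13 numbers in these ranges, and 107 of its 501 assays remained. Of these 107 assays, 28 were on array card A and 79 on card B.

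Mature miRNAs guide the silencing complex to mRNAs, mainly through the seed at bases 2 to 8. Many miRNAs with high numbers were found late in human sequencing surveys, are low in abundance and have no counterpart outside primates. The miR-548 family is the best known case and arose from short inverted-repeat DNA transposons that fold into hairpins when transcribed.

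The data came from 2 human embryonal carcinoma cell (hECC) lines, the nullipotent line 2102Ep and the pluripotent line NTera-2. Each line was transfected either with siRNA against SOX2 (siSOX2), a transcription factor of the pluripotent state, or with a non-targeting scrambled siRNA (NC), for 6 h, and RNA was taken after 72 h of incubation. Each line thus had an NC arm and a siSOX2 arm, each with 3 biological replicates, so 12 samples in all. Both arms of a line had the same transfection reagent. The reagent differed between the lines (Lipofectamine RNAiMAX for NTera-2, another Lipofectamine product for 2102Ep), and 2102Ep received the lower siRNA dose. A difference between the lines can therefore not be told apart from a difference in transfection. SOX2 mRNA was not on the cards, so the knock-down could not be checked in these values.

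Levels were measured by qRT-PCR on TaqMan cards after pre-amplification. The raw Ct is the PCR cycle at which the signal crossed the threshold, so 1 cycle is 1 log2 unit and a higher Ct means less RNA. The dCt is the raw Ct minus the reference of its card, and a log2 change below is a change in minus dCt, so that above 0 means more RNA. The depth of such data is the number of assays measured and their Ct: 422 to 451 assays were measured per sample, of which 85 were late-numbered in each 2102Ep sample and 101 to 103 in each NTera-2 sample. The median raw Ct of the late-numbered assays was 24.2 to 24.9 across the 2102Ep samples and 25.6 to 26.6 across the NTera-2 samples. The miRNAs that mark undifferentiated hECCs (miR-302a to d, miR-367, miR-371-3p, miR-372 and miR-373) were all measured in all 12 samples. Group means of raw Ct were 13.9 to 20.2 for miR-302a to d and miR-367. The others differed by line: miR-372 had 16.7 in 2102Ep NC and 22.9 in NTera-2 NC, miR-371-3p 19.1 and 25.2, and miR-373 20.4 and 19.1. Of 8 markers of other cell types, miR-122, miR-124, miR-1 and miR-451 have no row in the table used here. The other 4 were measured in 5 to 12 samples, and the mesenchymal ones had a lower mean Ct in siSOX2 than in NC. miR-143, measured in 5 samples of 2102Ep alone, had a mean raw Ct of 26.1 in NC and 22.8 in siSOX2 (log2 change 3.48, limma adjusted p = 0.0685). miR-145 went from 25.2 to 23.7 in NTera-2 (1.49, limma adjusted p = 0.0116) and from 23.1 to 22.7 in 2102Ep (0.57, limma adjusted p = 0.247). The myeloid miR-223 (mean Ct 22.9 to 25.8) and the muscle miR-133a (24.9 to 26.4) were not called after knock-down in either line. The part of such cells in the results below was not tested. RNA was taken from whole cultures, so fewer cells that make a miRNA and less of it per cell cannot be told apart.

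RefSeq (GRCh38.p14) held a mature sequence for 67 of the 107 assays. These sequences were 17 to 27 bases long, and their median GC content was 45.5% against 50% for the 74 other assays matched. Of the 67, 53 lay within the bounds of a protein-coding or lncRNA gene on the same strand (exon or intron was not resolved), and 54 had a seed that none of the other mature miRNAs among the 2370 in the RefSeq table carried. The 5 sequences that follow belong to the miRNAs on which the knock-down results turn, with the seed in capitals.
miR-1180-3p: uUUCCGGCucgcgugggugugu
miR-652-3p: aAUGGCGCcacuaggguugug
miR-603: cACACACUgcaauuacuuuugc
miR-642a-5p: gUCCCUCUccaaaugugucuug
miR-625-5p: aGGGGGAAaguucuauagucc

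miR-1180-3p lies at chr17:19344513-19344534 on the minus strand in B9D1. miR-652-3p lies at chrX:110055389-110055409 on the plus strand in TMEM164. miR-603 lies at chr10:24275745-24275766 on the plus strand in KIAA1217. miR-642a-5p lies at chr19:45674943-45674964 on the plus strand in GIPR. miR-625-5p lies at chr14:65471116-65471136 on the plus strand in FUT8. The 5 seeds all differ from each other.

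The next sequences belong to miRNAs that differed most clearly between the lines or share a seed with a well-known miRNA, again with the seed in capitals.
miR-1271-5p: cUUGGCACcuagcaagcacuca
miR-590-5p: gAGCUUAUucauaaaagugcag
miR-590-3p: uAAUUUUAuguauaagcuagu
miR-618: aAACUCUAcuuguccuucugagu
miR-1305: uUUUCAACucuaaugggagaga

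miR-1271-5p (chr5:176367960-176367981, plus strand, in ARL10) shares its seed with miR-96-5p, whose assay has no row in the table used here. miR-590-5p (chr7:74191213-74191234) and miR-590-3p (chr7:74191253-74191273) are the arms of 1 hairpin on the plus strand in EIF4H, and the 5p arm has the seed of miR-21-5p, an abundant miRNA of many tumours. miR-618 lies at chr12:80935796-80935818 on the minus strand in LIN7A, and miR-1305 at chr4:182169343-182169364 on the plus strand in TENM3.

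miR-603 also shares sequence with the miR-548 family. The stretch it has in common with miR-548c-3p (chr12:64622569-64622590, plus strand, in RASSF3) or, as a reverse complement, with miR-548b-5p (chr6:119069098-119069119, minus strand, in FAM184A) is in capitals here.
miR-603: cacacacugCAAUUACUUUUGC
miR-548c-3p: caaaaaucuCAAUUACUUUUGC
miR-548b-5p: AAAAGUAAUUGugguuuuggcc

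miR-603 and miR-548c-3p were identical over 13 bases, from base 10 to base 22, but not in the seed. The first 11 bases of miR-548b-5p were the reverse complement of bases in that stretch. The seed of miR-548b-5p is shared by 11 other mature miRNAs in RefSeq, most of them miR-548 members.

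The counts of miRNAs detected (a raw Ct under 40) differed more between the lines than between the arms. In 2102Ep cells 85 of the 107 miRNAs were measured in all 3 NC samples and the same number in all 3 siSOX2 samples (79.4%), and the remaining 22 were measured in no 2102Ep sample. In NTera-2 cells 102 (95.3%) were measured in all 3 NC samples and 100 (93.5%) in all 3 siSOX2 samples, and 4 were measured in none. No miRNA was measured in every sample of 1 arm and in no sample of the other arm of the same line. With a raw Ct under 32 the counts were 85 in NC and 84 in siSOX2 of 2102Ep, and 96 in each arm of NTera-2.

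In both lines 81 of the 107 (75.7%) were measured, each in all 12 samples. NTera-2 cells alone had 22 (20.6%), against 43 of the 394 other assays (10.9%), and 2102Ep cells alone had 4 (3.74%), against 44 of the others (11.2%). The NTera-2 share was higher on card B, with 19 of 79 late-numbered assays (24.1%) against 18.2% of the other card B assays, than on card A, with 3 of 28 (10.7%) against 7.25%. The 22 assays measured in NTera-2 cells alone were miR-548I, miR-548K, miR-562, miR-566, miR-570, miR-575, miR-580, miR-581, miR-585, miR-587, miR-589 (assay 001543), miR-604, miR-607, miR-609, miR-616 (assays 001589 and 002414), miR-626, miR-633, miR-649, miR-660, miR-1247 and miR-1272. The 4 measured in 2102Ep cells alone were miR-573, miR-644, miR-662 and miR-1262.

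Several of these line-restricted miRNAs had early Ct values where they were measured. miR-660, which is made from an X-linked cluster with miR-532 and miR-188, had a raw Ct of 23.79, 21.78 and 23.76 in NTera-2 NC and 23.87, 22.89 and 23.14 in NTera-2 siSOX2. miR-1262 had 19.53, 18.66 and 18.85 in 2102Ep NC and 19.01, 19.30 and 18.84 in 2102Ep siSOX2. Both were thus well inside the range of the miRNAs measured in both lines, and their arms overlapped. In the line without a value the cells of all 6 samples were empty and not listed at Ct 40. A failed amplification and a filter applied before deposition cannot be told apart there, and a filter by line would leave both arms alike. A Ct of 40 was listed for 4 late-numbered miRNAs, miR-562, miR-580, miR-609 and miR-633, each in 1 NTera-2 sample.

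**Figure D1:**
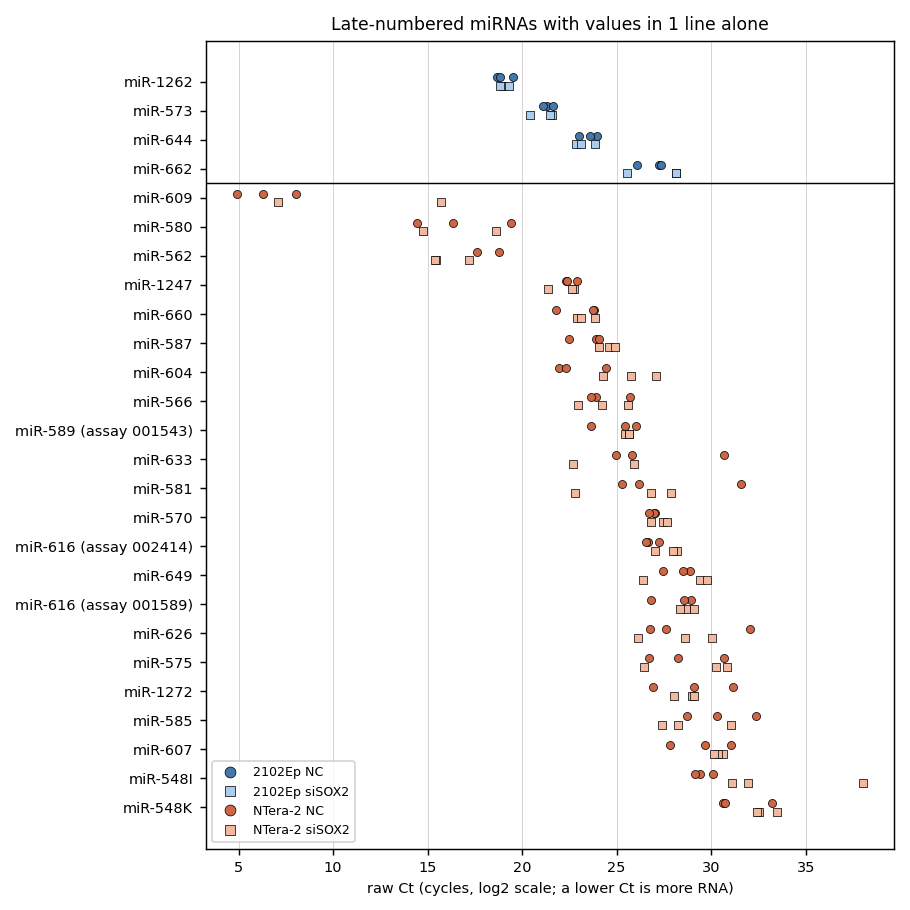
Raw Ct (cycles, lower is more RNA) of the late-numbered assays measured in 1 line alone, 1 point per sample with a Ct under 40, circles for NC and squares for siSOX2. The 22 assays of NTera-2 and the 4 of 2102Ep have values in both arms of their line, and miR-609 lies below Ct 15 in 4 of its samples.

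Some values were very early. A raw Ct under 15 was listed for miR-1305 and miR-639 in all 6 samples of 2102Ep, and for miR-609 (4 samples) and miR-580 (2 samples) in NTera-2. miR-609 had 4.93, 6.27 and 8.03 in NTera-2 NC, and 15.72 and 7.08 in the 2 siSOX2 samples that were measured. Whether these wells report the miRNA was not tested.

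The late-numbered miRNAs varied more between replicates than the rest of the cards. Their median SD of dCt over 3 replicates was 0.429 in 2102Ep NC, 0.461 in 2102Ep siSOX2, 0.660 in NTera-2 NC and 0.474 in NTera-2 siSOX2, where the other assays had 0.291, 0.338, 0.379 and 0.276. On card B in NTera-2 NC the median SD was 0.932, and 34 of 74 late-numbered assays had an SD over 1 cycle. The median over the late-numbered assays of the mean raw Ct was 24.4 in NC and 24.7 in siSOX2 of 2102Ep and 25.8 and 26.0 in NTera-2, where the other assays had 24.7 and 24.7, and 24.9 and 24.99.

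SOX2 knock-down in 2102Ep cells changed 3 late-numbered miRNAs: miR-1180 fell, and miR-603 and miR-652 rose. In the limma fit over all assays (a group mean for each of the 4 groups, Benjamini-Hochberg adjusted p below 0.05), these were 3 of the 85 tested (3.53%), against 14.6% of all assays tested. At an unadjusted p below 0.05 there were 8 (9.41%) against 25% of all assays. The values of both arms did not overlap for 11 (12.9%) against 31.9% of all assays. The median log2 change of the 85 was 0.08, with 50 above and 35 below 0, and that of all assays was -0.00. On card B, which held 60 of the 85, the 2102Ep reference is the card's own median. That reference holds the median change of the card near 0, so these medians do not measure a shift of the whole card. With RNU44 and RNU48 as reference the medians were 0.56 and 0.43, with 73 of the 85 above and 12 below 0.

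miR-1180 had a dCt of 2.56, 2.50 and 3.04 in 2102Ep NC and of 3.63, 4.004 and 4.56 in 2102Ep siSOX2. All siSOX2 samples held less than any NC sample. The fall was 2.57-fold (log2 change -1.36, SE 0.29, limma adjusted p = 0.00976). Referred to the small nucleolar RNAs RNU44 and RNU48 in place of the deposited reference, it was -0.81 (limma adjusted p = 0.0560), and the median change of all assays was then 0.43.

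miR-603, which carries the miR-548-like 3′ stretch shown above, had a dCt of 2.39, 1.52 and 2.02 in 2102Ep NC and 0.22, 0.24 and 1.40 in 2102Ep siSOX2. The lowest NC value and the highest siSOX2 value were close, while the other siSOX2 samples lay over 1 cycle below all NC samples. The rise was 2.56-fold (log2 change 1.36, SE 0.36, limma adjusted p = 0.0272). It missed the threshold with the 6 samples of 2102Ep alone (limma adjusted p = 0.0805) and without NC replicate 1 (1.15, limma adjusted p = 0.103), NC replicate 3 (0.0803), siSOX2 replicate 1 (0.0952) or siSOX2 replicate 2 (0.0907).

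miR-652, an X-linked miRNA that is also known in mouse, had a dCt of 5.80, 5.54 and 5.61 in 2102Ep NC and 4.66, 5.10 and 4.52 in 2102Ep siSOX2. The arms did not overlap, and the NC samples were the closer together. The rise was 1.86-fold (log2 change 0.89, SE 0.22, limma adjusted p = 0.0216). With the replicate number as a block the limma adjusted p was 0.0526. The rise also missed the threshold without NC replicate 1 (0.82, limma adjusted p = 0.0825), NC replicate 3 (0.0646), siSOX2 replicate 1 (0.0695) or siSOX2 replicate 3 (0.77, 0.0775).

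A further 5 miRNAs had an unadjusted p below 0.05 in 2102Ep cells but missed the adjusted threshold. miR-572 had a dCt of 3.60, 3.16 and 2.73 in NC and 1.93, 2.10 and 1.73 in siSOX2 (log2 change 1.24, SE 0.41, limma adjusted p = 0.0747). miR-1271 had 5.45, 5.73 and 4.89 in NC and 6.50, 6.00 and 7.08 in siSOX2 (-1.17, SE 0.40, limma adjusted p = 0.0836). In both the arms were apart by less than 1 cycle at their nearest samples. The other 3 were miR-628-5p (0.75), miR-625 (0.65) and miR-1303 (-1.60), with limma adjusted p from 0.0839 to 0.155.

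**Figure D2:**
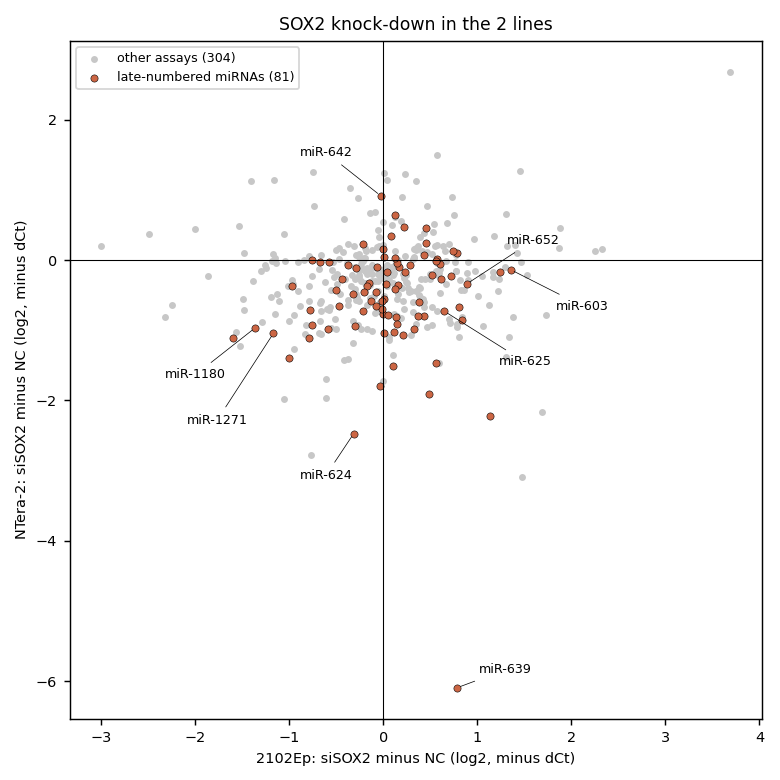
Log2 change of minus dCt after SOX2 knock-down in 2102Ep (x axis) and in NTera-2 (y axis), 1 point per assay measured in both lines, with the late-numbered assays marked. miR-1180 and miR-1271 lie below 0 in both lines, and miR-652 and miR-625 lie above 0 in 2102Ep and below 0 in NTera-2.

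In NTera-2 cells 1 late-numbered miRNA passed the threshold after SOX2 knock-down: miR-642 rose. This was 1 of 103 tested (0.971%) against 5.54% of all assays. At an unadjusted p below 0.05 there were 16 (15.5%) against 21.7%, 2 higher and 14 lower. The arms did not overlap for 19 (18.4%) against 29% of all assays. The median log2 change of the 103 was -0.42, with 81 below 0 (78.6%), but that of all assays was -0.27, with 71.4% below 0. With the mean of each card as reference the medians were 0.03 and 0.07, and 52 of the late-numbered miRNAs lay above 0 and 51 below, so the share below 0 moved with the reference.

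miR-642 had a dCt of 14.93, 15.05 and 15.37 in NTera-2 NC and 14.30, 14.26 and 14.04 in NTera-2 siSOX2. All siSOX2 samples held more than any NC sample. The rise was 1.89-fold (log2 change 0.92, SE 0.20, limma adjusted p = 0.0261). Same-numbered NC and siSOX2 samples deviated together in NTera-2, and with the replicate number as a block the limma adjusted p was 0.0932, so that 0 of the 103 were called. The call was also lost without NC replicate 3 (0.79, limma adjusted p = 0.121) or without siSOX2 replicate 1 (0.0579), 2 (0.0722) or 3 (0.0831). In 2102Ep cells the dCt of miR-642 was 11.63, 11.36 and 11.28 in NC and 11.40, 11.28 and 11.67 in siSOX2, and the arms overlapped (-0.03, 95% interval -0.48 to 0.42).

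Among the lower values of NTera-2, both arms of the miR-590 hairpin had an unadjusted p below 0.05. miR-590-3P had a dCt of 5.08, 4.38 and 4.75 in NC and 5.33, 5.64 and 5.42 in siSOX2 (log2 change -0.73, SE 0.22, limma adjusted p = 0.0937). miR-590-5p had 6.86, 6.03 and 6.71 in NC and 7.43, 7.30 and 7.23 in siSOX2 (-0.79, SE 0.25, limma adjusted p = 0.0994). Neither passed the adjusted threshold, and the 2 assays are on different cards. The 2 assays of miR-616 (-0.80 and -0.93) and those of miR-589 (-0.73 and -0.99) were also both below 0. With this reference 78.6% of the late-numbered miRNAs and 71.4% of all assays were below 0. With the card mean as reference the change of miR-590-3P was -0.21 and its NC and siSOX2 samples overlapped, while those of miR-590-5p stayed apart.

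miR-548b-5p had a dCt of 13.39, 11.90 and 12.19 in NTera-2 NC and 14.05, 13.63 and 14.31 in NTera-2 siSOX2 (log2 change -1.51, SE 0.40, limma adjusted p = 0.0577), and it passed the threshold with RNU44 and RNU48 as reference (-1.61, limma adjusted p = 0.0231) or without NC replicate 1 (-1.95, 0.0124). miR-589 (assay 002409) had 14.34, 13.67 and 14.19 in NC and 14.62, 15.08 and 15.47 in siSOX2 (-0.99, limma adjusted p = 0.0595). miR-624 had 12.61, 11.45 and 11.60 in NC and 14.28, 13.25 and 15.56 in siSOX2 (-2.47, SE 0.70, limma adjusted p = 0.0713). The arms were apart in all of these, and miR-624 spread over more than 2 cycles within siSOX2. The remaining miRNAs with an unadjusted p below 0.05 were miR-562 (2.11) above 0 and miR-597, miR-598, miR-604, miR-625, miR-639, miR-653, miR-1180, miR-1271 and miR-1282 below 0, from -0.59 for miR-598 to -6.09 for miR-639. The value of miR-639 rested on siSOX2 samples with raw Ct of 20.19, 24.28 and 31.00 against 17.19, 20.44 and 20.16 in NC, and its SE was 2.17.

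Both lines together had 81 late-numbered miRNAs tested, and 0 were called in both, against 8 of the 385 assays tested in both. At an unadjusted p below 0.05 in each line there were 3, against 30 of all assays. miR-1180 and miR-1271 were lower after knock-down in each line, and miR-625 had opposite signs. In NTera-2 miR-1180 had a dCt of 8.63, 8.02 and 8.15 in NC and 9.48, 9.31 and 8.92 in siSOX2 (log2 change -0.97, SE 0.29, limma adjusted p = 0.0937), again without overlap of the arms. miR-1271 had 6.32, 5.35 and 5.94 in NC and 6.83, 7.57 and 6.35 in siSOX2 (-1.04, SE 0.41, limma adjusted p = 0.170), with the arms nearly touching. With the card mean as reference the NTera-2 arms overlapped for both miRNAs, and the miR-1180 change there was -0.45. The difference of the miR-1180 change between the lines was 0.40 (95% interval -0.51 to 1.31). It was taken on card B dCt, whose reference was not the same in both lines.

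**Figure D3:**
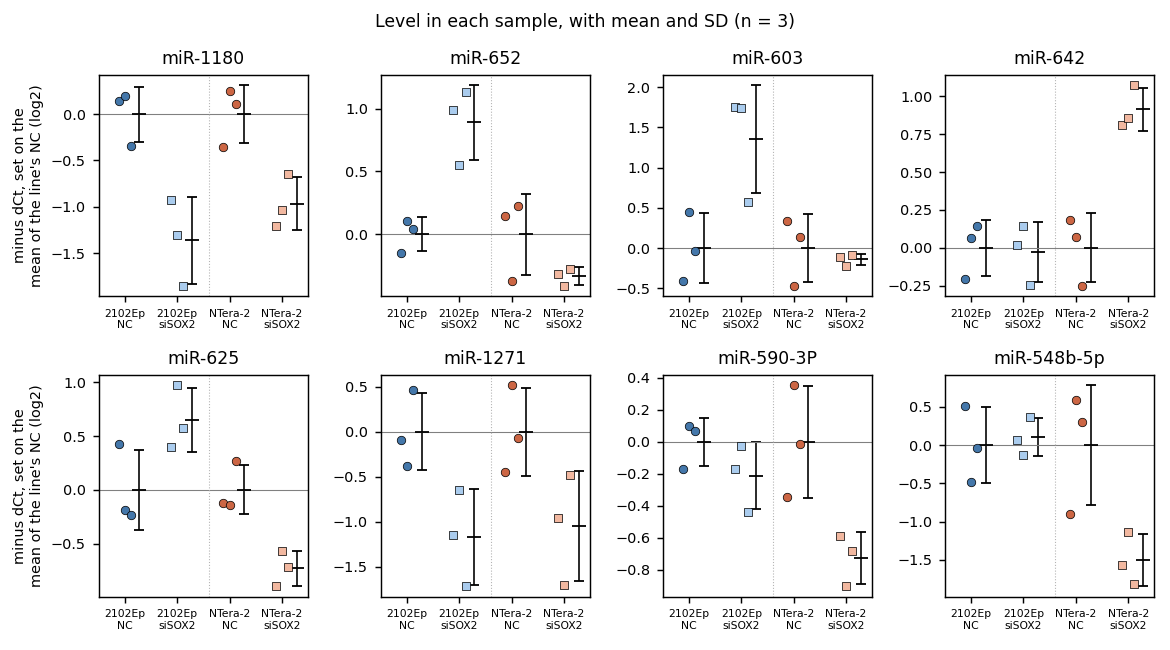
Minus dCt (log2, higher is more RNA), set on the NC mean of the same line, for 8 late-numbered miRNAs, 1 point per sample, with the mean and SD of each group beside the points (n = 3). With this deposited reference every siSOX2 sample of miR-1180 lies below every NC sample in each line. For miR-642 the siSOX2 samples of NTera-2 alone lie above the others.

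The difference of the knock-down effect between the lines passed the threshold for miR-625 and miR-652. These were 2 of 81 (2.47%) against 6.23% of all assays tested, and both effects were lower in NTera-2 than in 2102Ep. The difference was taken on the deposited dCt, whose card B reference was not the same in both lines. Of the 81, 56 were on card B, while miR-625 and miR-652 were on card A, which had the same reference RNAs in each line. miR-625 had a dCt of 10.60, 11.22 and 11.26 in 2102Ep NC and 10.63, 10.05 and 10.45 in 2102Ep siSOX2, where the arms just overlapped. In NTera-2 it had 12.63, 12.64 and 12.24 in NC and 13.40, 13.07 and 13.22 in siSOX2, without overlap (-0.73, limma adjusted p = 0.118). The difference was -1.38 (SE 0.35, limma adjusted p = 0.0477). For miR-652, which rose in 2102Ep, the NTera-2 values were 9.01, 9.52 and 8.93 in NC and 9.47, 9.57 and 9.43 in siSOX2, overlapping (-0.34). Its difference was -1.23 (SE 0.32, limma adjusted p = 0.0479).

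Both differences sat just under the threshold. With the replicate number as a block the limma adjusted p was 0.0975 for miR-625 and 0.0858 for miR-652, and 0 were called. With the card mean as reference it was 0.0545 and 0.147, and again 0 were called. The median difference of all assays was -0.27 with the deposited reference and 0.03 with the card mean. Over all 20 alternatives, each sample left out in turn included, the adjusted p ranged from 0.0173 to 0.120 for miR-625, which was called in 7, and from 0.0205 to 0.147 for miR-652, which was called in 8. The difference kept its sign in all of them, between -1.83 and -1.19 for miR-625 and between -1.68 and -1.04 for miR-652. Of the 12 samples left out in turn, only 2102Ep NC replicate 1 (limma adjusted p = 0.0353) and NTera-2 NC replicate 2 (0.0446) could go without loss of the miR-625 call, and only 2102Ep siSOX2 replicate 2 (0.0389) and NTera-2 NC replicate 2 (0.0205) without loss of the miR-652 call.

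Most late-numbered miRNAs differed in level between the lines. Because the deposited reference of card B was not the same in both lines, raw Ct was here centred on the mean of the assays measured in all 12 samples, per sample and card, and a relative level above 0 means more RNA than that mean. Of the 81 miRNAs measured in both lines, 64 (79%) differed between the NC samples, against 77.5% of all assays tested. The share lower in NTera-2 was 58% (47), against 37% of all assays, and the share higher was 21% (17), against 40.4%. In the siSOX2 samples 59 (72.8%) differed, against 73.8% of all assays: 39 lower (48.1%, against 31.7%) and 20 higher (24.7%, against 42.1%). The median log2 difference of NTera-2 from 2102Ep was -0.99 in NC and -1.06 in siSOX2, where that of all assays was 0.15 and 0.06. These shares leave out the miRNAs measured in 1 line alone, 22 in NTera-2 and 4 in 2102Ep. With unmeasured values set at Ct 40, 39 of 107 were higher and 51 lower in NC, and 42 higher and 41 lower in siSOX2. The medians were then -0.70 and -0.69, where all assays had 0.26 and 0.31, and 405 and 387 of 499 assays were called.

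The NC and siSOX2 comparisons use different samples. Of the miRNAs called, 52 were called in both, which was 81.2% of the NC calls and 88.1% of the siSOX2 calls, against 85.6% and 90.1% over all assays. All 52 had the same direction, 17 higher and 35 lower in NTera-2, as did 253 of the 256 assays called in both. In both comparisons 28 (34.6%) were called with a difference over 4-fold, against 36.9% of all assays, 9 of them higher and 19 lower.

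The zero point of these line differences depended on the reference. With RNU44 and RNU48 as reference, all assays had a median of -1.68 in NC and -2.50 in siSOX2, and 2 of the 81 were higher and 64 lower in NC, and 1 higher and 71 lower in siSOX2. With the deposited dCt 0 were higher and 80 lower in each comparison. Relative to the median of all assays the late-numbered miRNAs were lower, by -1.14 (card mean), -1.58 (card median) and -1.52 (RNU44 and RNU48) in NC. In siSOX2 the values were -1.12, -1.54 and -1.60. The deposited dCt gave -2.24 and -2.40, which cannot be read as a difference in level, because its card B reference differed by line. Of the 81, 56 were on card B, against 152 of the 386 assays tested in NC. The reference RNAs themselves moved between the lines: U6 on card A had a mean raw Ct of 14.9 in 2102Ep NC and 10.8 in NTera-2 NC, and miR-16 had 21.6 and 18.6. The directions given below are those relative to the card mean.

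miR-1271, with the seed of miR-96, had the largest difference on the higher side in both comparisons. Its relative level was -5.95, -6.37 and -5.51 in 2102Ep NC, -7.22, -6.61 and -7.66 in 2102Ep siSOX2, 1.41, 2.60 and 1.75 in NTera-2 NC, and 1.46, 0.94 and 1.77 in NTera-2 siSOX2. Every NTera-2 sample was over 6 log2 units above every 2102Ep sample. The difference was 7.87 in NC (SE 0.39, limma adjusted p = 3.46e-08) and 8.56 in siSOX2 (limma adjusted p = 1.8e-08), and with the deposited dCt it was -0.51 and -0.39.

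miR-1180 was likewise higher in NTera-2, with a relative level of -3.06, -3.14 and -3.66 in 2102Ep NC against -0.90, -0.07 and -0.46 in NTera-2 NC (log2 difference 2.81, limma adjusted p = 6.61e-06). After knock-down the difference was 3.77. Both arms of the miR-590 hairpin were higher in NTera-2, the 3p arm by 2.46 in NC and 2.51 in siSOX2 and the 5p arm by 1.73 and 1.08. The other miRNAs over 4-fold higher in both comparisons were miR-1179 (2.63 in NC and 3.84 in siSOX2), miR-1227 (3.07, 2.91), miR-1285 (2.95, 2.29), miR-592 (3.37, 2.24), miR-629 (assay 001562; 3.27, 3.27) and miR-650 (2.20, 2.60). With RNU44 and RNU48 as reference, miR-650 was below 0 in NC and miR-590-3P, miR-590-5p, miR-592, miR-629 (assay 001562), miR-650, miR-1227 and miR-1285 were below 0 in siSOX2.

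The largest values on the lower side, beyond 5 log2 units in both comparisons, were those of miR-639, miR-1305, miR-630 and miR-643. miR-1305 had a raw Ct of 11.29, 13.90 and 11.40 in 2102Ep NC and 11.02, 11.95 and 10.73 in 2102Ep siSOX2, against 20.12, 18.99 and 18.67 in NTera-2 NC and 18.55, 23.39 and 21.91 in NTera-2 siSOX2. miR-639 had 13.67, 10.86 and 11.34 and 11.20, 11.26 and 11.55 in the same 2102Ep groups. The differences were -6.56 and -9.34 for miR-1305 and -6.80 and -13.11 for miR-639, and both rest on 2102Ep values under Ct 15. miR-630 spread widely in NTera-2, with relative levels from -4.69 to -11.76 in NC and from -4.17 to -10.42 in siSOX2, and its differences were -6.63 (SE 1.92) and -8.09. miR-643 had differences of -5.39 and -5.16, with an SD of 2.28 in 2102Ep NC.

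miR-618 was lower in NTera-2. Its relative level was 3.09, 2.55 and 2.74 in 2102Ep NC and 2.79, 2.89 and 2.77 in 2102Ep siSOX2, against 0.41, -1.47 and -0.13 in NTera-2 NC and -0.80, -0.76 and -0.69 in NTera-2 siSOX2. The lines did not overlap, and NTera-2 NC had the widest spread (SD 0.97). The difference was -3.19 in NC (SE 0.39, limma adjusted p = 2.41e-05) and -3.57 in siSOX2. Other miRNAs over 4-fold lower in both comparisons included miR-623 (-3.96 and -4.04), miR-1282 (-3.76, -4.96), miR-624 (-3.67, -5.26), miR-564 (-3.41, -3.90) and miR-659 (-3.29, -2.57).

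**Figure D4:**
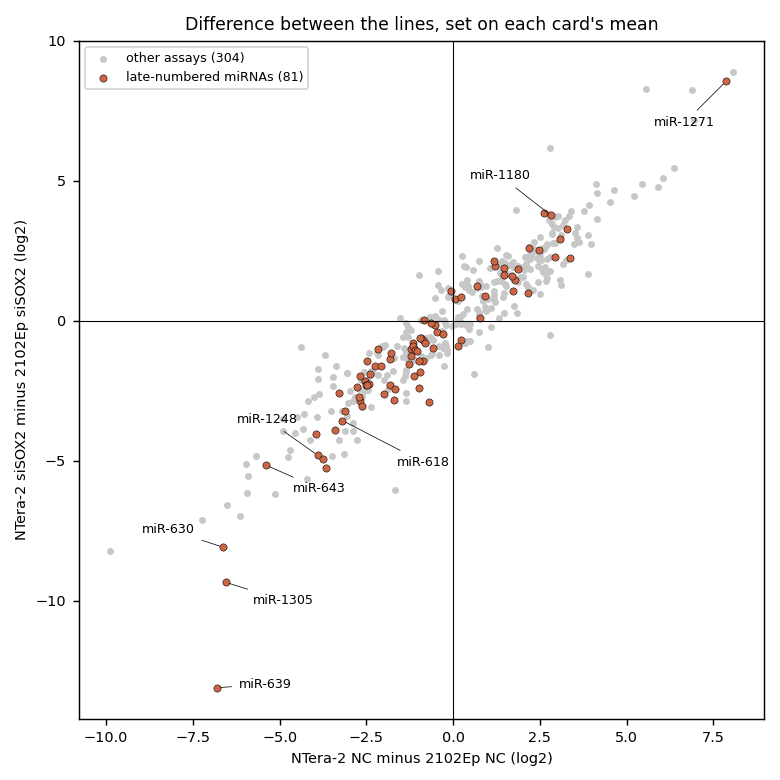
Log2 difference of relative level, NTera-2 minus 2102Ep, in the NC samples (x axis) and in the siSOX2 samples (y axis), 1 point per assay, with the late-numbered assays marked. miR-1271 lies at 7.87 and 8.56, and miR-639, miR-1305 and miR-630 lie below -6 on both axes.

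miR-629 was measured by 2 assays that went opposite ways. Assay 001562 on card B was higher in NTera-2, with a relative level of -2.91, -2.10 and -2.90 in 2102Ep NC and -0.08, 1.45 and 0.52 in NTera-2 NC. Assay 002436 on card A was lower, with -1.60, -0.69 and -1.14 against -3.24, -3.21 and -3.17 (log2 difference -2.07). The lines did not overlap in either assay. The table gives both the same name, so which mature strand each reads was not settled here and no sequence is printed for them.

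Of the 8 assays of the miR-548 family, 6 were measured in all 12 samples and 2, miR-548I and miR-548K, in NTera-2 alone. Knock-down called 0 of the 6 tested in 2102Ep (14.6% of all assays) and 0 of the 8 tested in NTera-2 (5.54% of all assays), where miR-548b-5p was called lower with RNU44 and RNU48 as reference (-1.61, limma adjusted p = 0.0231). The median log2 change was 0.11 over the 6 tested in 2102Ep (from -0.78 to 0.23, where all assays had -0.00) and -0.41 over the 8 tested in NTera-2 (from -4.33 to 0.63, where all assays had -0.27). With the card mean as reference the NTera-2 median was -0.19, with 4 above and 4 below 0. The lowest value was that of miR-548I, whose raw Ct was 29.42, 29.16 and 30.11 in NTera-2 NC and 31.93, 31.11 and 38.03 in NTera-2 siSOX2 (limma adjusted p = 0.236).

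Between the lines 5 of the 6 were lower in NTera-2 NC, with a median difference of -1.48. miR-548a had a mean relative level of -2.33 ± 0.44 (SD, n = 3) in 2102Ep NC and -5.05 ± 0.66 in NTera-2 NC. miR-548c, whose sequence is shown above, had -0.99 ± 0.60 and -3.51 ± 0.34 (difference -2.53). Its opposite arm, miR-548c-5p, had -2.33 ± 0.41 and -3.48 ± 0.71 (difference -1.15). miR-548d differed by -1.81, while its opposite arm miR-548d-5p had -2.70 ± 0.28 and -2.63 ± 0.59 (0.07, 95% interval -0.62 to 0.76) in NC and was higher by 0.77 in siSOX2 (limma adjusted p = 0.0445). In siSOX2, 4 were lower and 1 was higher, with a median of -1.77. miR-548b-5p differed by -0.97 in NC and by -2.40 in siSOX2. With RNU44 and RNU48 as reference all 6 were lower in both comparisons, miR-548d-5p included.

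**Figure D5:**
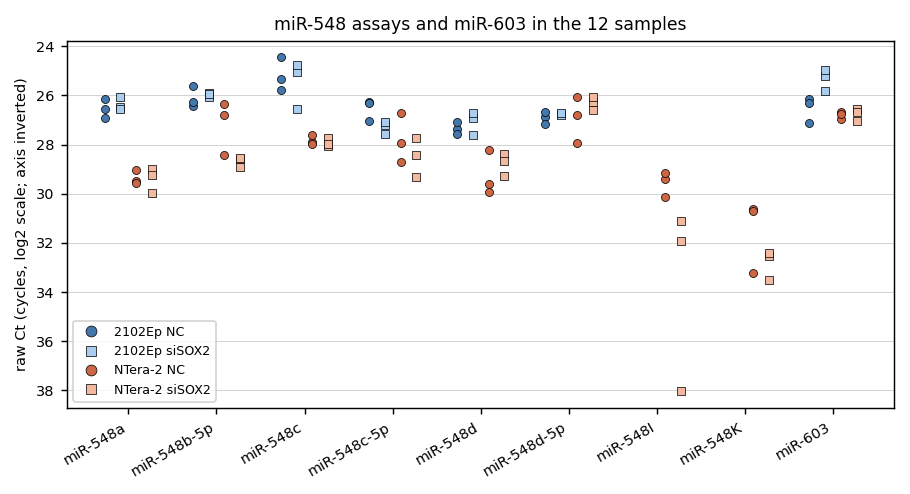
Raw Ct (cycles, log2 scale, axis turned so that higher is more RNA, not centred on the card) of the 8 miR-548 assays and miR-603, 1 point per sample in each group. The NTera-2 points of miR-548a, miR-548c and miR-548d lie below their 2102Ep points, miR-548I and miR-548K have NTera-2 points alone, and 1 siSOX2 point of miR-548I lies at Ct 38.03.

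The study lists miRNA precursors with a SOX2 site near the start of transcription. It took the sites from published binding data of human embryonic stem cells, not from these lines. To the listed precursors belong 11 of the assays (miR-548d, miR-548d-5p, miR-564, miR-596, miR-629 with both assays, miR-630, miR-638, miR-664, miR-1183 and miR-1262). After SOX2 knock-down 0 of the 11 were called in 2102Ep by limma, against 14.6% of all assays, and 0 had an unadjusted p below 0.05, against 25%. Their log2 changes ran from 0.01 to 0.78, with a median of 0.23 beside -0.00 for all assays, and with the card mean as reference 10 were above and 1 below 0. In NTera-2 0 of the 10 tested were called, against 5.54% of all assays, and 0 had an unadjusted p below 0.05. There 5 lay above and 5 below 0, and the median was -0.00 beside -0.27, while with the card mean as reference 7 lay above and 3 below 0, with a median of 0.51 beside 0.07. The highest value in 2102Ep was that of miR-596 (0.78, SE 0.47, limma adjusted p = 0.350).

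Of the assays whose miRNA is cut from a small nucleolar RNA or overlaps one, miR-664, miR-1248 and miR-1291, 0 of 3 were called after knock-down in each line, against 14.6% of all assays in 2102Ep and 5.54% in NTera-2, and 0 had an unadjusted p below 0.05. Between the lines miR-1248 was lower in NTera-2, with a mean relative level of -4.32 ± 0.55 (SD, n = 3) in 2102Ep NC and -8.22 ± 0.95 in NTera-2 NC (difference -3.90, and -4.81 in siSOX2). miR-664 had 1.89 ± 0.59 and 2.81 ± 1.65 (limma adjusted p = 0.234).

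The 13 assays whose number also names a mouse miRNA were miR-551b, miR-574-3p, miR-582-3p, miR-590-3P, miR-590-5p, miR-592, miR-598, miR-628-3p, miR-628-5p, miR-652, miR-653, miR-664 and miR-1247. In 2102Ep 1 of the 12 tested was called after knock-down, miR-652, against 14.6% of all assays, and the median change was 0.45 beside -0.00 for all assays. In NTera-2 0 of 13 were called, against 5.54% of all assays, 4 had an unadjusted p below 0.05, and the median was -0.02 beside -0.27. Between the NC samples of the lines 4 of 12 were higher and 3 lower in NTera-2, against 40.4% and 37% of all assays, with a median of 0.53 beside 0.15 for all assays and -0.99 for the 81 late-numbered miRNAs. Between the siSOX2 samples 5 were higher and 5 lower, against 42.1% and 31.7% of all assays, with a median of 0.41. Those called higher in NC included miR-574-3p (1.86), and those called lower were miR-582-3p (-1.78), miR-598 (-1.28) and miR-628-5p (-0.99). With RNU44 and RNU48 as reference 0 of the 12 were higher and 7 lower in NC, and 0 higher and 9 lower in siSOX2.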

How the data were processed

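RNA of 12 samples was profiled on TaqMan array cards A and B. The authors deposited raw Ct values and dCt values, both on a log2 scale in cycles, made with DataAssist, and the files give a table of fold ratios with p-values between arms, which holds their own comparisons and was not used. dCt was raw Ct minus 1 constant per sample and card: controls on card A, and on card B the card's median in 2102Ep but in NTera-2 the mean of 3 controls, which were U6, RNU48 and miR-16-1*. The raw Ct column of 2102Ep siSOX2 replicate 3 was out of line with its assays from row 106 on and was realigned through the dCt (99.7% of 339 values then matched within 0.02 cycles, 0.592% before). In 6 empty dCt cells the assay stood at the median and was set to 0, and 9 raw Ct cells were recovered from dCt.

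Tests used limma 3.58.1 in R 4.3.3 (Python 3.11.15 for the rest) with 4 group means over all assays with at least 2 measured samples in each group compared, eBayes and Benjamini-Hochberg adjustment over all assays tested. The code was tested on simulated data. Comparisons within a line and the difference of the knock-down effect between the lines used dCt. Comparisons of level between the lines used centred raw Ct. Named miRNAs were those called, those filling up to 6 per direction at an unadjusted p of 0.05 or less, miR-1180, the line-restricted ones and the lists given. The members and lists were chosen with earlier results of these data known. Same-numbered samples correlated in their deviations in NTera-2 (0.118, 0.265 and 0.159 over all assays), as read from the data. The main fits did not pair samples in either line, and pairing entered through the replicate block alone. Alternatives were other references, filters, fills for missing values, a variance trend, a replicate block, the samples of a comparison alone and each sample left out. The number of assays and of samples sets the precision.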

Additional observations from a re-analysis of the deposited data

Results flagged for a closer look

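The effect of SOX2 knock-down on miR-625 differed between the lines by the interaction in the limma fit. The change was 0.65 in 2102Ep and -0.73 in NTera-2, a difference of -1.38 on the log2 scale (limma adjusted p = 0.0477).

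The same test was passed for miR-652, which changed by 0.89 in 2102Ep and by -0.34 in NTera-2, a difference of -1.23 (limma adjusted p = 0.0479). Neither difference passed with the replicate number as a block (limma adjusted p 0.0975 and 0.0858) or with the card mean as reference (0.0545 and 0.147). Transfection reagent, siRNA dose and, by the study's qRT-PCR, the SOX2 mRNA left after knock-down also differed between the lines.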

How the results depend on the processing

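In 2102Ep, 3 miRNAs were called at the deposited reference, 6 with RNU44 and RNU48 as reference, and 1 to 3 with each sample left out. In NTera-2, 1 was called, 0 with a variance trend, and 0 to 3 with each sample left out. With RNU44 and RNU48, or with the 6 NTera-2 samples alone, the count was also 1, but it was a lower miRNA and not miR-642. For the difference between the lines, 2 were called, 0 with the card mean, 5 with RNU44 and RNU48, 1 with a trend, and 0 to 2 with each sample left out. Calls between the lines were 51 to 59 (NC) and 54 to 62 (siSOX2) with each sample left out. A filter at Ct 35 removed no assay. Leaving out values under raw Ct 15, an alternative chosen after seeing the data, kept the knock-down counts at 3, 1 and 2. The cause of these changes was not tested.

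With the replicate number as a block, 0 were called in NTera-2, where same-numbered samples correlated over all assays, and 0 for the difference. In 2102Ep the same-numbered samples correlated at 0.157, 0.161 and 0.039, and whether they are paired was not settled. Over the late-numbered assays alone the values were 0.131, 0.297 and -0.014 in NTera-2 and -0.193, 0.366 and -0.066 in 2102Ep. The block left 3 called in 2102Ep, miR-652 going to a limma adjusted p of 0.0526 and miR-572 to 0.0191. Between the lines the block gave 60 calls in NC and 61 in siSOX2.

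With the card mean as reference, 52 of the 103 miRNAs lay above 0 in NTera-2 after knock-down, where the deposited reference gave 22. Among the miRNAs followed through each alternative (those called or filling the named set), the directions that turned were all between the lines. With the deposited dCt, whose card B reference differs by line, the NC differences were miR-1179 -5.75, miR-1180 -5.57, miR-1227 -5.31, miR-1271 -0.51, miR-1285 -5.43, miR-548d-5p -3.57, miR-574-3p -1.78, miR-590-3P -5.92, miR-590-5p -1.91, miR-592 -5.01, miR-629 (assay 001562) -5.11, miR-650 -6.18 and miR-664 -7.46. In siSOX2 they were, in the same order, -5.10, -5.17, -6.03, -0.39, -6.65, -3.06, -1.99, -6.43, -2.75, -6.70, -5.67, -6.35 and -8.05. With RNU44 and RNU48, miR-548d-5p was -1.45, miR-650 -0.17 and miR-664 -1.45 in NC. In siSOX2 miR-1227 was -0.51, miR-1285 -1.13, miR-548d-5p -1.40, miR-574-3p -0.33, miR-590-3P -0.91, miR-590-5p -1.09, miR-592 -1.17, miR-629 (assay 001562) -0.15, miR-650 -0.82 and miR-664 -2.52. With each sample left out, miR-548d-5p ranged from -0.23 to 0.36 in NC, below 0 without replicate 2 of 2102Ep NC (-0.04) or of NTera-2 NC (-0.23).

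No well repeats or amplification curves were used, and an empty cell gives no upper limit on a level.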
